A study of Mus musculus with 6 samples.

Results

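The genes described here encode the protein subunits of the mitochondrial respiratory chain that are written in the nuclear genome. They were chosen by symbol, as genes on chromosomes 1 to 19 and X whose symbol begins with Ndufa, Ndufb, Ndufc, Ndufs, Ndufv, Sdha, Sdhb, Sdhc, Sdhd, Uqcr, Cox4, Cox5, Cox6, Cox7, Cox8 or Atp5, without pseudogenes or assembly factors and with a mean of at least 1 CPM over all libraries, CPM being counts scaled to library size with TMM factors. Of 110 genes with such a symbol, 9 were pseudogenes, 12 were assembly factors and 10 fell under 1 CPM, which left 79 of the 53801 genes in the files. The 79 comprised 37 genes of complex I, 4 of complex II, 8 of complex III, 13 of complex IV and 17 of complex V. Inside the threshold, the lowest member was Cox7a1 at 2.06 CPM, and the highest gene outside it was Cox8b at 0.342 CPM.

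The RNA came from mouse neural progenitor cells (NPCs), dividing precursors of neurons and glia, which had been differentiated from embryonic stem cells of strain BL/6J x CAST-EiJ and subcloned. All cells, untreated ones included, carry a degron on SPEN, a large RNA-binding protein that represses transcription, so that the plant hormone auxin triggers its breakdown. The 3 groups were untreated cells, cells given 500 uM auxin for 24 h and cells given 500 uM auxin for 48 h, each with 1 library from subclone 30 and 1 from subclone 31 (n = 2 per group). The labels name 2 subclones and neither cells without the degron nor a vehicle, so an effect of auxin itself and of SPEN loss cannot be told apart. On treatment group alone, p-values weigh a change against the spread between these 2 subclones. Fits with the clone as a block remove the mean difference between the subclones. Their p-values weigh the mean change against how unlike the changes over time were in the 2 subclones. In both fits the estimate of the spread of a gene also draws on the other genes tested. The libraries held 24603816 to 43008978 counts. The degron acts on the protein, so the Spen transcript is no check of the depletion, and Spen had 258.8 and 199.6 CPM at 48 h in clones 31 and 30, against 115.7 and 92.3 CPM in the untreated cells of the same clones. Markers of NPCs were present in every library (summed over 10 markers, 3890 to 5485 CPM), and 6 pluripotency markers summed to 4.86 to 7.49 CPM.

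The respiratory chain passes electrons from NADH (complex I) and succinate (complex II) through complexes III and IV to oxygen and pumps protons across the inner mitochondrial membrane, and complex V, the ATP synthase, uses the return of those protons to make ATP. Most subunits are encoded in the nucleus and imported, and a small core is encoded by mitochondrial DNA. Neural progenitors are known for a strong reliance on glycolysis, and differentiation towards neurons is known for a shift towards oxidative phosphorylation. The 37 genes of the mitochondrial chromosome had 0 counts in every library, so the mitochondrially encoded core was not analysed here.

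The members took 1.08% and 1.31% of all counts in untreated clones 31 and 30, 1.07% and 1.13% at 24 h, and 1.15% and 1.20% at 48 h. The largest share was that of the untreated clone 30 library, which also had the lowest total count. Complex V accounted for 40.2% of the members' summed CPM, complex I for 28.0%, complex IV for 13.5%, complex III for 10.6% and complex II for 7.73%. Summed over the 79 genes, the level was 11900 ± 1477 CPM in untreated cells, 11069 ± 234.3 CPM at 24 h and 11723 ± 347.8 CPM at 48 h (mean ± SD, n = 2 each). The differences between these sums were smaller than the SD of the untreated group.

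**Figure D1:**
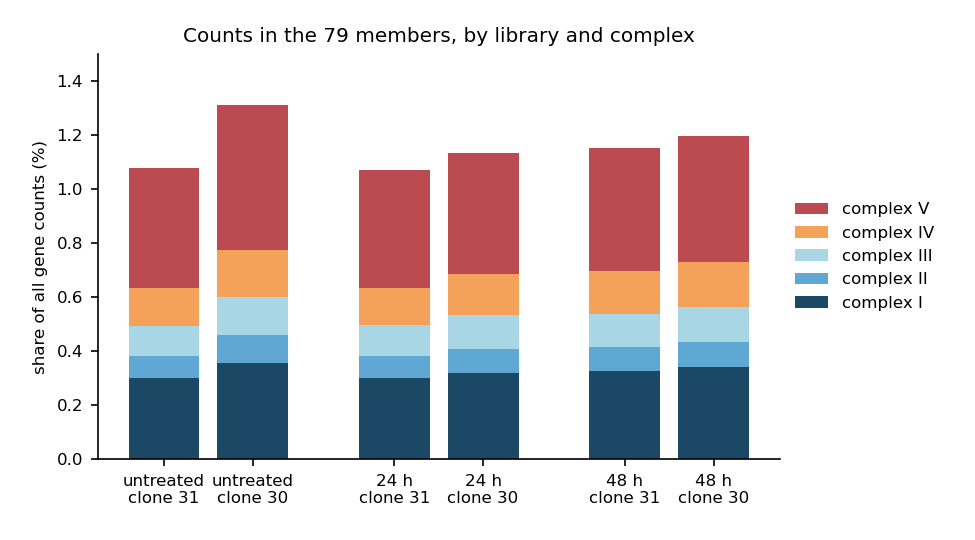
Share of all gene counts taken by the 79 members in each library (vertical axis, percent, starting at 0), stacked by complex, with the libraries in order of auxin time and clone 31 beside clone 30. The 6 bars lie between 1.07% and 1.31%, and untreated clone 30 has the highest.

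Levels within a complex spread over more than a factor of 10 in complexes I, IV and V when expressed as CPM per kb of exon (mean of the 6 libraries ± SD). In complex I, Ndufa4, a small subunit that is now also assigned to complex IV, was highest at 141 ± 18.6 CPM per kb, and Ndufb2, an accessory subunit of the membrane arm, was lowest at 4.10 ± 0.44 CPM per kb. In complex II, Sdhd, a membrane anchor, was highest at 132 ± 10.3 CPM per kb, and Sdhc, the other anchor, was lowest at 45.1 ± 4.09 CPM per kb. In complex III, Uqcr10 had 172 ± 17.8 and Uqcrq 60.2 ± 4.88 CPM per kb, both small accessory subunits.

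In complex IV, Cox8a, the widely expressed form of subunit VIII, reached 383 ± 43.0 CPM per kb, the highest value of all members, and Cox7a1, the form of subunit VIIa known from heart and skeletal muscle, had 3.85 ± 2.47 CPM per kb, the lowest. In complex V, Atp5a1 and Atp5b, the alpha and beta subunits of the catalytic head, had 340 ± 23.0 and 312 ± 26.4 CPM per kb, and Atp5s, coupling factor B, had 5.31 ± 0.53 CPM per kb. The lengths are the union of all annotated exons of a gene, so a long rarely used isoform lowers this value. The members had a median exon length of 1675 bp and a median level of 100.7 CPM, against 3939 bp and 23.9 CPM over the 16007 genes tested. All 79 members passed the filter on low counts.

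**Figure D2:**
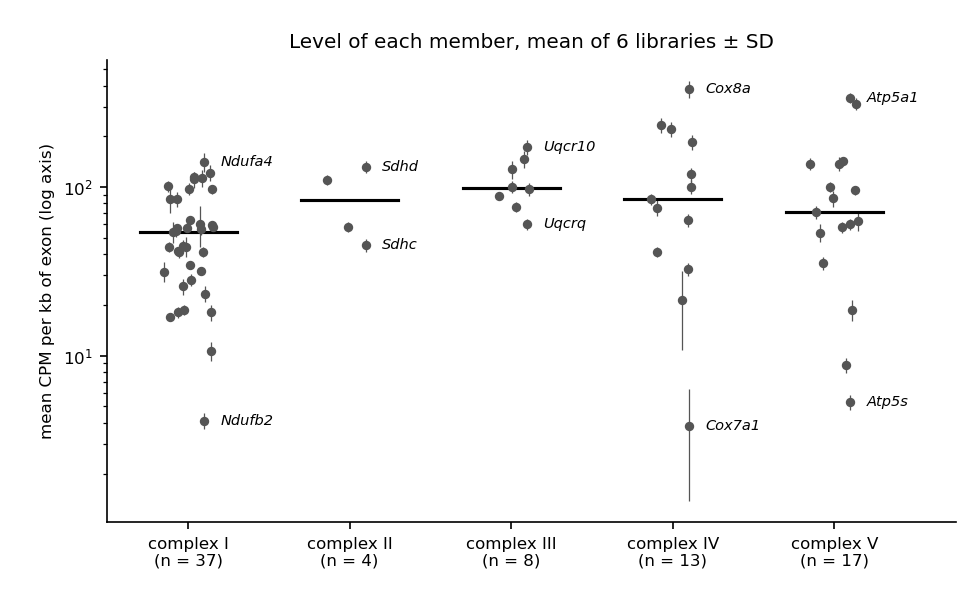
Mean CPM per kb of exon of each member over the 6 libraries (log axis; points, with bars of 1 SD; black lines, the median of the complex), with the highest and lowest member of each complex named. The highest is Cox8a at 383 and the lowest Cox7a1 at 3.85.

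Where a subunit has a widely expressed and a tissue-restricted form, the widely expressed form made up nearly all of the signal. Cox4i1 had 258 to 325 CPM and Cox4i2, a form known from lung, held 4 counts over all libraries. Cox6a1 had 132 to 169 CPM and the muscle form Cox6a2 0.208 CPM on average. Cox8a had 181 to 243 CPM, and Cox8b averaged 0.342 CPM while Cox8c had 0 counts in every library. Cox6b was the exception, with 148 to 187 CPM of Cox6b1 and 10.2 to 36.8 CPM of Cox6b2, a form known from testis. Subunit c of the ATP synthase, whose mature protein is the same from 3 genes, came mostly from Atp5g3 (272 to 353 CPM), with 110 to 134 CPM of Atp5g2 and 74.4 to 108 CPM of Atp5g1. Reads that match several of these genes or their processed pseudogenes cannot be assigned to 1 of them, so levels of such members are uncertain.

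Across the 6 libraries, the median coefficient of variation of the members was 8.58%. It was not computed for other genes, so whether this is low for genes of such a level was not tested. Of the 79 members, 75 were under 15%. The other 4 were Cox7a1 at 64.3%, Cox6b2 at 49.5%, Ndufv3 at 27.0% and Ndufa1 at 16.6%.

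After 24 h of auxin no change in any member reached the threshold. At an adjusted p of 0.05 in edgeR's quasi-likelihood test against untreated cells, 0 members were called on treatment group alone and 0 with the clone as a block, against 0% of the 16007 genes in both fits. At an unadjusted p under 0.05 the counts were 0 of 79 members in both, against 1.5% and 6.17% of all genes, and DESeq2 with the block called 0 members against 0.277% of genes. The median log2 change of the members was -0.09 with the block, beside 0.01 over all genes tested, and 69 of 79 lay below 0. The 3 smallest p-values belonged to Atp5j, coupling factor 6 of the ATP synthase, at -0.19 ± 0.09 (log2 change ± SE, adjusted p = 0.842), to Cox7c, a small subunit of complex IV, at -0.19 ± 0.11 (adjusted p = 0.861) and to Ndufv3, an accessory subunit of the NADH-binding module, at -0.27 ± 0.17 (adjusted p = 0.875).

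At 48 h against untreated cells, no member of any complex was called in a comparison that called 17.4% of all genes. With the clone as a block, edgeR called 2790 of 16007 genes, 8.35% higher and 9.08% lower, and 0 of the 79 members. On treatment group alone it called 0 members and 0% of genes, and at an unadjusted p under 0.05 the counts were 2 members against 20.7% of genes without the block and 3 members against 37.4% with it. DESeq2 with the block called 1 member, Cox7a1, against 23.7% of genes. The median log2 change of the members was 0.03, beside 0.02 over all genes, with 43 above 0 and 36 below.

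The size of these changes was also bounded. The log2 change was smaller than 0.5 in either direction for 78 of 79 members, against 69.2% of all genes and 80.3% of the genes with a mean of 20 CPM or more. Cox6b2 lay just inside this bound at 0.499 ± 0.217 and Cox7a1 outside it. The 95% interval lay inside -0.5 to 0.5 for 69 members and inside -1 to 1 for 77. The median SE was 0.11 for members and 0.11 for genes with a mean of 20 CPM or more, against 0.15 over all genes. By complex, the median log2 change was 0.04 in complex I, -0.02 in complex II, -0.02 in complex III, 0.06 in complex IV and -0.02 in complex V.

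**Figure D3:**
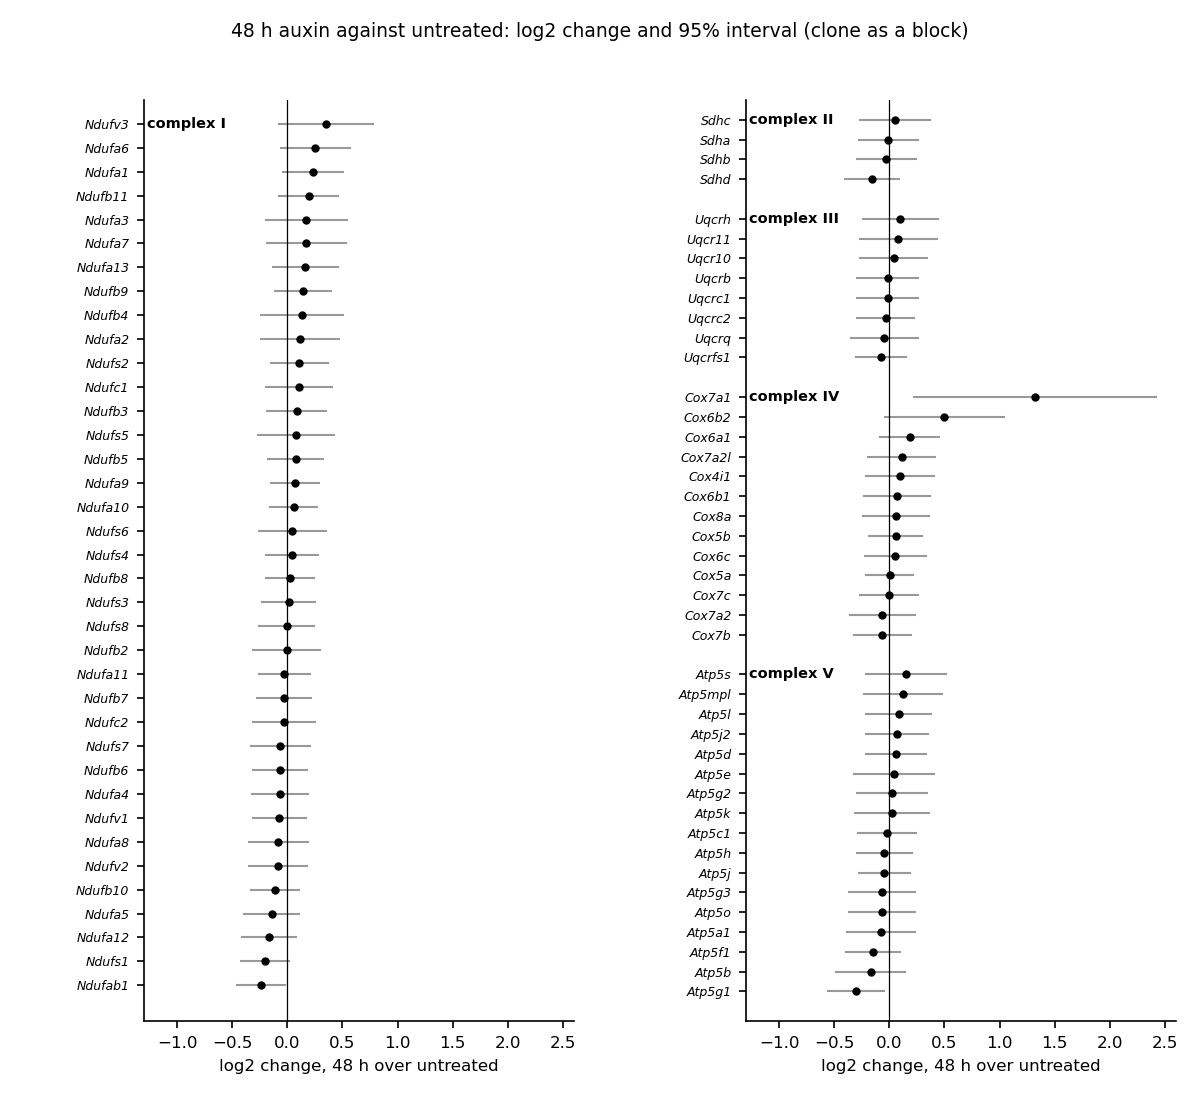
Log2 change at 48 h over untreated for each member (points) with its 95% interval (lines), from edgeR with the clone as a block, grouped by complex. 78 of 79 points lie within 0.5 of the vertical line at 0, with Cox6b2 at 0.499, and Cox7a1 at 1.32 lies beyond it.

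The 3 members with the smallest p at 48 h against untreated were Cox7a1, Atp5g1 and Ndufab1. Cox7a1 had 4.48 and 2.55 CPM at 48 h in clones 31 and 30, from 119 and 79 counts, against 1.12 and 1.76 CPM in untreated cells, from 45 and 44 counts. The log2 change was 1.32 ± 0.45 (adjusted p = 0.0900 in edgeR with the block, 0.0453 in DESeq2 with the block). Atp5g1 had 80.5 and 74.4 CPM at 48 h, against 90.7 and 100.8 CPM in untreated cells, a log2 change of -0.30 ± 0.10 (edgeR with the block, adjusted p = 0.0914). Ndufab1, the mitochondrial acyl carrier protein that also sits in complex I, had 58.8 and 69.2 CPM at 48 h, against 72.6 and 77.9 CPM in untreated cells, a log2 change of -0.24 ± 0.09 (edgeR with the block, adjusted p = 0.112). The differences of Atp5g1 and Ndufab1 did not pass the test.

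The count of calls at 48 h changed when either 48 h library was left out. Without the 48 h library of clone 30, edgeR with the block called 10 members, all higher, against 39.4% of genes, while leaving out that of clone 31 gave 1 call, Atp5g1, lower, against 19.5% of genes. In such a fit the group has a lone library, which is assumed to vary like the others. Leaving out any 1 of the other 4 libraries gave 0 member calls, in fits that called fewer genes of any kind: 11.8% of genes without untreated clone 30, 0.0367% without untreated clone 31, 3.76% without 24 h clone 30 and 3.93% without 24 h clone 31. The fit on the 4 libraries compared called 0 members and 0.0195% of genes. A count of 0 members where almost no gene was called says little about the members. Over the same comparison, with the block and all libraries, 5 of 7 astrocyte and 3 of 6 oligodendrocyte markers tested rose and none fell. Over all genes, 8.35% were higher and 9.08% lower. Of 9 NPC markers tested 2 rose and 0 fell, and of 7 neuron markers 0 rose and 1 fell. Calls of marker lists were not counted in the fits on fewer libraries. Summed astrocyte markers were at 2409 and 2154 CPM at 48 h in clones 31 and 30, against 1300 and 1797 CPM in untreated cells. S100b had a log2 change of 0.96 ± 0.18 (edgeR with the block, adjusted p = 0.0295). In bulk RNA a different mix of cells and a different level per cell cannot be told apart, and the part of these markers in the members' values was not tested.

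Between the auxin times, 48 h against 24 h, 3 of 79 members (3.80%) passed the test with the clone as a block, against 26.1% of all genes, of which 12.3% were higher and 13.9% lower. Ndufv3 rose, and Atp5g1 and Ndufab1 fell. On treatment group alone edgeR called 0 members and 0% of genes, with 4 members at an unadjusted p under 0.05 against 25% of genes (42.3% of genes with the block). DESeq2 called 1 member, Atp5g1, against 18.3% of genes, and with the block 4 members, the same 3 and Cox7a1, against 29.8%. The median log2 change of the members was 0.10, beside 0.03 over all genes, and 60 of 79 lay above 0. The 48 h libraries are shared with the comparison to untreated cells, so the 2 comparisons are not independent.

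Ndufv3 (chr17:31520115-31531326, GRCm38, + strand) had 229 and 146 CPM at 48 h in clones 31 and 30, against 125 and 115 CPM at 24 h. At 48 h clone 31 stood well above clone 30. Its log2 change was 0.62 ± 0.17 (edgeR with the block, adjusted p = 0.0474). Untreated cells had 142 and 146 CPM, so clone 30 had about the same level at 48 h as untreated.

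Atp5g1 (chr11:96068852-96075670, - strand) had 80.5 and 74.4 CPM at 48 h, against 98.3 and 108 CPM at 24 h, a log2 change of -0.41 ± 0.10 (edgeR with the block, adjusted p = 0.0362). Both clones were lower at 48 h than at 24 h and than in untreated cells. The other genes for subunit c did not pass the test: Atp5g2 had a log2 change of 0.13 ± 0.13 and Atp5g3 of 0.06 ± 0.12. Summed over the 3 genes, subunit c had 511.5 and 483.1 CPM at 48 h, against 493.7 and 508.2 CPM at 24 h.

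Ndufab1 (chr7:122085403-122101886, - strand) had 58.8 and 69.2 CPM at 48 h, against 75.1 and 86.4 CPM at 24 h, a log2 change of -0.34 ± 0.09 (edgeR with the block, adjusted p = 0.0413). Cox7a1 had 4.48 and 2.55 CPM at 48 h, against 0.853 and 1.57 CPM at 24 h, a log2 change of 1.56 ± 0.44, and stood at the threshold (adjusted p = 0.0504 in edgeR with the block, 0.0111 in DESeq2 with the block). Of the 3 calls, none held without either 24 h library, where 0 members were called among 0 to 3 genes, and that of Ndufv3 was also lost without the 48 h library of clone 31 (adjusted p = 0.0611). Without the 48 h library of clone 30, more members and more genes of any kind were called. The log2 changes there were 0.94 for Ndufv3, -0.26 for Atp5g1 and -0.36 for Ndufab1 (edgeR with the block). Upper-quartile scaling lost Atp5g1 (adjusted p = 0.0626) and Ndufab1 (adjusted p = 0.0751), kept Ndufv3, and called Cox7a1 and Ndufa1 as higher. Ndufab1 also missed the threshold with total-count scaling (adjusted p = 0.0601), without either untreated library (adjusted p = 0.0567 and 0.0571) and in the fit on the 4 libraries compared (adjusted p = 0.0599).

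**Figure D4:**
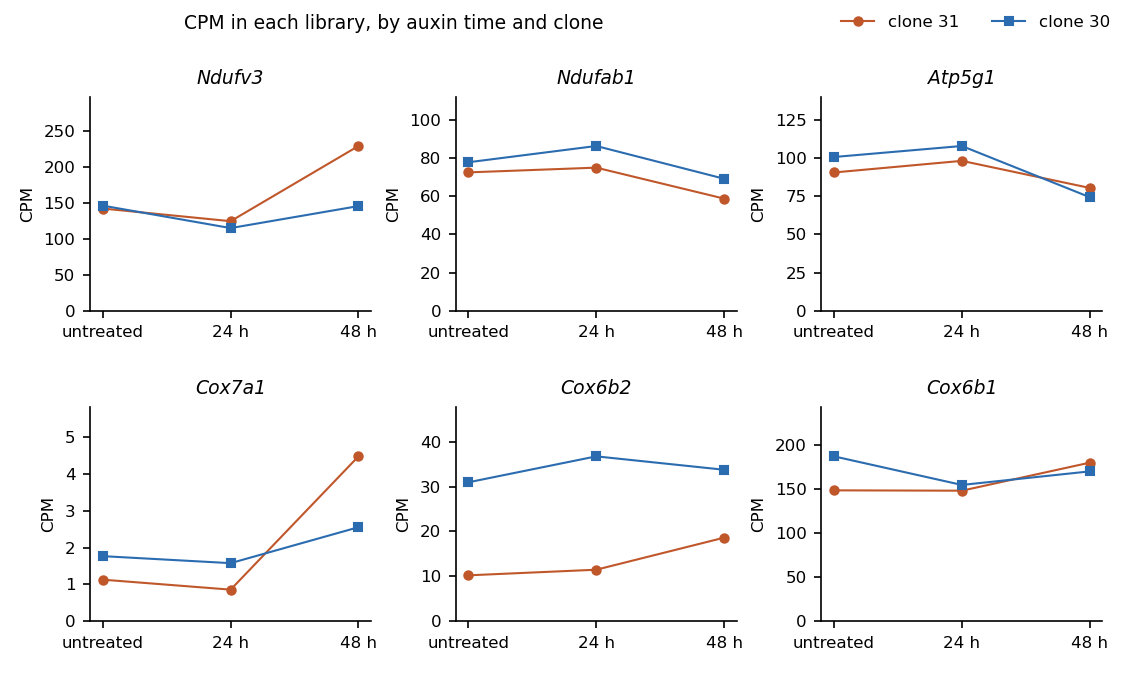
CPM in each library (vertical axes, each from 0) by auxin time, for the 3 members called between 48 h and 24 h, for Cox7a1, and for Cox6b2 beside its widely expressed counterpart Cox6b1; circles and squares are clones 31 and 30. Ndufv3 reaches 229 CPM at 48 h in clone 31 and 146 CPM in clone 30, and Cox6b2 is lower in clone 31 at every time.

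Promoters of respiratory chain genes are known to hold sites of the activators NRF1, GABP (an ETS factor) and YY1. RefSeq windows on GRCm38.p6, which run from 250 bases before to 50 after an annotated start, matched 67 of the 79 members (72 windows), and 3 fixed strings were searched in them on both strands. The NRF1 string CGCATGCG was in 12.5% of the members' windows, against 3.57% of 14554 windows of tested genes and 1.87% of all 32851 windows. The ETS string CCGGAAG was in 22.2%, against 16.02% of windows of tested genes and 8.86% of all, and the YY1 string AAGATGGC in 13.9%, against 4.05% and 2.75%. No matches of different strings shared bases in a member's window. The median GC content was 58.0% in the members' windows, against 60.7% in windows of tested genes and 52.7% in all, and at least 1 string was in the windows of 29 of 67 members.

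The 120 bases before the annotated start are shown for the 3 members that passed the test between 48 h and 24 h, and for Atp5g2 and Cox6b1, sister genes of Atp5g1 and Cox6b2, as windows with a match. Capitals mark a match on either strand.
Ndufv3, chr17:31519995-31520114, + strand: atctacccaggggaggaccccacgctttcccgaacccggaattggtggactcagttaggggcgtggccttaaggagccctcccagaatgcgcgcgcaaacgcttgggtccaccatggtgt
Ndufab1, chr7:122101849-122101968, - strand: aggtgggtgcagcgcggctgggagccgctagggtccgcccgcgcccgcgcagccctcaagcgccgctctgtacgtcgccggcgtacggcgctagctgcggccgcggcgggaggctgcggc
Atp5g1, chr11:96075632-96075751, - strand: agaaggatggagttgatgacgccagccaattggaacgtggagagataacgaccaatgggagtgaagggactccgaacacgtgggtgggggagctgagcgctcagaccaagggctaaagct
Atp5g2, chr15:102671048-102671167, - strand: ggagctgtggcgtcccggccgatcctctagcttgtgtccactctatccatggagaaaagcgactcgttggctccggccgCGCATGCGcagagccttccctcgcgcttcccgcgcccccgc
Cox6b1, chr7:30626115-30626234, - strand: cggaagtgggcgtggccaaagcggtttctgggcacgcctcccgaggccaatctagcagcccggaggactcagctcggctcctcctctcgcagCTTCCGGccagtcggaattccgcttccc
The windows of the 3 called members held none of the strings over their whole length, Atp5g2 held the NRF1 string and Cox6b1 the ETS string on the opposite strand. A match describes letters and is no evidence of binding.

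The subclones differed in 1 member with TMM scaling and in up to 4 with other scalings. Between clone 31 and clone 30 over all times, with treatment group and clone as terms, edgeR called 1 of 79 members, against 16.1% of all genes (7.54% higher and 8.58% lower in clone 31), and 8 members had an unadjusted p under 0.05, against 32.2% of genes. Cox6b2 (chr7:4751792-4753094, - strand) had 10.2, 11.4 and 18.6 CPM in clone 31 untreated, at 24 h and at 48 h, against 30.97, 36.76 and 33.77 CPM in clone 30. It was lower in clone 31 at all 3 times. The log2 difference was -1.38 ± 0.18 (edgeR, adjusted p = 0.0078), and it stayed between -1.66 and -1.23 when any 1 library was left out. Cox6b1 had a log2 difference of -0.10 ± 0.10 (edgeR, adjusted p = 0.519). Scaling by total counts called 4 members, Cox6b2, Ndufa1, Ndufa4 and Ndufs1, all lower in clone 31, against 16.4% of all genes. Upper-quartile scaling called 2, Cox6b2 and Ndufa4, against 16.2% of all genes.

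The next smallest p-values were those of Ndufa4 at -0.30 ± 0.08 (edgeR, adjusted p = 0.0667) and Ndufa1, an X-linked subunit of the membrane arm, at -0.30 ± 0.09 (edgeR, adjusted p = 0.0787). The median log2 difference of the members was -0.10, beside 0.01 over all genes, and 68 of 79 lay below 0. It was not the same at each time: the median was -0.26 in untreated cells, where 78 of 79 members were lower in clone 31, then -0.06 at 24 h and 0.06 at 48 h. The median at 48 h changed sign to -0.05 when libraries were scaled by total counts. Without the 48 h library of either clone, more members, all lower in clone 31, and more genes of any kind were called. With that of clone 30 left out, the log2 differences were -1.65 for Cox6b2, -0.33 for Ndufa4 and -0.34 for Ndufa1. With that of clone 31 left out, they were -1.66, -0.33 and -0.35.

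Within clones, the members moved in opposite directions by small amounts when set against untreated cells. At 48 h against untreated, the median log2 difference between the 2 libraries was 0.15 in clone 31, with 69 of 79 members above 0, and -0.15 in clone 30, with 71 below 0. At 24 h it was 0.03 in clone 31, with 55 above 0, and -0.18 in clone 30, with 72 below. At 48 h 61 members were above 0 in clone 31 and below 0 in clone 30, 0 had the opposite pattern, 8 were above 0 in both and 10 below 0 in both; over all genes tested these patterns took 14.4%, 13.4%, 36.9% and 35.3%. Each clone has 1 library per time, so there is no spread to test this difference against, and the untreated library of a clone enters both of its differences. All 5 complexes had a median above 0 in clone 31 and below 0 in clone 30 at 48 h. The largest medians were 0.27 in clone 31 for complex IV and -0.20 in clone 30 for complex V. From 24 h to 48 h the members moved the same way, with medians of 0.15 in clone 31 and 0.05 in clone 30. For that step 51 members were above 0 in both clones and 11 below 0 in both, against 41.1% and 38.6% of all genes.

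**Figure D5:**
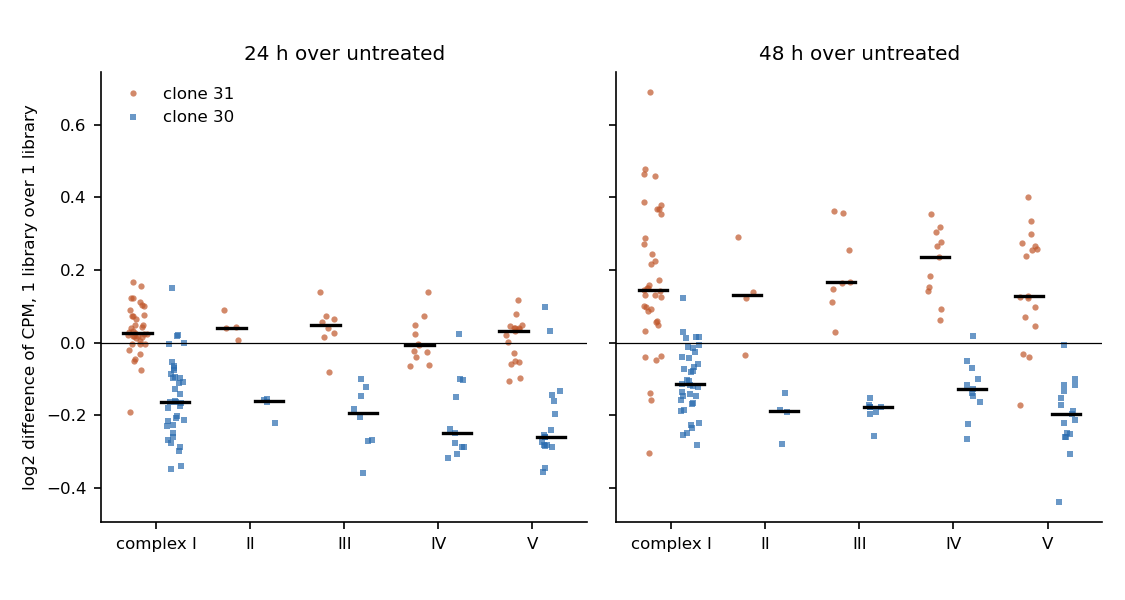
Log2 difference of CPM between 1 auxin library and the untreated library of the same clone, for the members by complex (circles, clone 31; squares, clone 30; black lines, medians), without Cox7a1 and Cox6b2, which would stretch the axis. At 48 h most circles lie above 0 and most squares below it.

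Other measures also differed between the clones at 48 h. Summed CPM of 19 glycolysis and hypoxia target genes in clones 31 and 30 was 8922 and 9267 without auxin, 8283 and 6345 after 24 h, and 16124 and 5853 after 48 h. Of the 18 that were tested, 3 were higher in clone 31 on average over the times, against 7.54% of all genes. Among them was Hk2, a hexokinase, with a log2 difference of 2.37 ± 0.40 (edgeR, adjusted p = 0.0155). With the block, 0 were called at 48 h against untreated, beside 17.4% of all genes, and 0 at 48 h against 24 h, beside 26.1%. Total counts in clone 31 were 27628297 at 48 h and 40257256 untreated, and in clone 30 they were 29668494 at 48 h and 24603816 untreated. The part of these in the members' values was not tested.

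The members on chromosome X are of interest because SPEN is known as a partner of Xist, the RNA that silences 1 X chromosome in female cells. Ndufa1, Ndufb11 and Cox7b, a subunit of complex IV, were the 3 X-linked members, and none was called with the block and TMM scaling over all 6 libraries. Ndufa1 was called under other settings: higher at 48 h against 24 h with upper-quartile scaling (0.44 ± 0.12, edgeR with the block, adjusted p = 0.0395) and with 48 h clone 30 left out (adjusted p = 0.0150). It was lower in clone 31 with total counts (-0.36 ± 0.09, edgeR, adjusted p = 0.0473) and with 48 h clone 30 (adjusted p = 0.0188) or 48 h clone 31 (adjusted p = 0.0167) left out. Ndufa1 had 37.2 and 43.5 CPM at 48 h in clones 31 and 30, against 29.1 and 40.0 CPM in untreated cells, a log2 change of 0.24 ± 0.11 (edgeR with the block, adjusted p = 0.177). Ndufb11, an accessory subunit of complex I, had 113.9 and 108.5 CPM at 48 h, against 88.2 and 107.4 CPM in untreated cells, a log2 change of 0.19 ± 0.11 (adjusted p = 0.254). Cox7b had 106.1 and 99.1 CPM at 48 h, against 99.5 and 115.7 CPM in untreated cells, a log2 change of -0.07 ± 0.10 (adjusted p = 0.683). Only for Ndufb11 were both 48 h libraries above both untreated ones, and the share of all genes ordered so was not counted.

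Among genes that act on the chain, rather than in it, those called at 48 h with the block were lower, and on treatment group alone 0% of all genes were called. Beside the counts that follow, 9.08% of all genes were lower at 48 h against untreated and 13.9% at 48 h against 24 h. Of 15 regulators of mitochondrial biogenesis, 6 (40%) fell at 48 h against untreated and 9 (60%) at 48 h against 24 h, with 0 higher in either and median log2 changes of -0.39 and -0.44 (edgeR with the block). Pprc1, a coactivator related to PGC-1, had 14.3 and 29.0 CPM at 48 h in clones 31 and 30, against 94.9 and 60.8 CPM in untreated cells, a log2 change of -1.84 ± 0.38 (adjusted p = 0.0334). Tfam, which packages and transcribes mitochondrial DNA, had a log2 change of -0.50 ± 0.10 (adjusted p = 0.0335). Among the factors whose strings were searched in the promoters, Nrf1 had -0.39 ± 0.09 (adjusted p = 0.0404) and Yy1 -0.42 ± 0.10 (adjusted p = 0.0423). Gabpb1, the beta subunit of GABP, had -0.55 ± 0.11 (adjusted p = 0.0330), and the gene of its alpha subunit, Gabpa, is not described here.

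Of 44 assembly factors, 4 (9.09%) fell at 48 h against untreated, the share of all genes that fell, and 11 (25%) at 48 h against 24 h, and 0 rose. Ndufaf4, which helps build complex I, had 9.60 and 21.2 CPM at 48 h, against 35.9 and 35.7 CPM in untreated cells, a log2 change of -1.29 ± 0.27 (adjusted p = 0.0345). Sco1, which delivers copper to complex IV, had a log2 change of -0.64 ± 0.13 (adjusted p = 0.0342). Sco2, a relative of Sco1, and Tmem70, an assembly factor of complex V, were the others.

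Of 77 mitochondrial ribosomal protein genes tested, 9 (11.7%) fell at 48 h against untreated, near the share over all genes, and 20 (26%) at 48 h against 24 h, with 0 higher. Mrpl12 had 66.7 and 73.3 CPM at 48 h, against 110.7 and 107.1 CPM in untreated cells, a log2 change of -0.64 ± 0.10 (adjusted p = 0.0246). Of 16 genes of the tricarboxylic acid cycle and pyruvate entry, 2 (12.5%) fell in both comparisons, near the share over all genes, and 0 rose: Idh3a, of isocitrate dehydrogenase, at -0.64 ± 0.11 (adjusted p = 0.0257) and Dlat, of pyruvate dehydrogenase, at -0.48 ± 0.09 (adjusted p = 0.0287). Among 9 subunits and carriers whose symbols fall largely outside the rule, of which 2 are members, Cycs, cytochrome c, fell at -0.58 ± 0.11 (adjusted p = 0.0295), with 52.0 and 71.9 CPM at 48 h in clones 31 and 30, against 85.4 and 98.5 CPM in untreated cells. Cyc1, the cytochrome c1 subunit of complex III, had -0.18 ± 0.10 (adjusted p = 0.245).

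Set side by side for 48 h against untreated, 0 of 79 members, 4 of 44 assembly factors, 9 of 77 mitochondrial ribosomal protein genes, 2 of 16 tricarboxylic acid cycle genes and 6 of 15 biogenesis regulators were called, all lower, against 9.08% of all genes called lower. The median log2 changes were 0.03, -0.18, -0.13, -0.18 and -0.39 in that order, beside 0.02 over all genes. For the lists other than the members, these counts were 0 in the fit on the 4 libraries compared, which called 0.0195% of all genes. They were also 0 when untreated clone 31 or 24 h clone 30 was left out. Leaving out 24 h clone 31 kept a single call, of a mitochondrial ribosomal protein gene. At 48 h against 24 h the counts of these lists were 0 without either 24 h library. Without the 48 h library of clone 30, assembly factors, mitochondrial ribosomal protein genes and tricarboxylic acid cycle genes were called in both directions at 48 h against untreated. In each of these lists more genes were lower than higher. That fit has a lone 48 h library and called a larger share of all genes. The fits on fewer libraries that gave counts of 0 called a far smaller share of all genes than the fit on all libraries. A count of 0 there says little about these lists. Whether the members' count differs from those of the other lists was not tested.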

How the data were processed

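Libraries (TruSeq RNA kit v2, read pairs, RIN above 9) came from 6 cultures, per the labels' protocols. Read pairs were deposited as counts for each gene, from featureCounts 1.6.1 in reversely stranded mode over Ensembl release 92 exons (GRCm38, mm10), per the file headers, which point to merged alignments with duplicates removed. R 3.4.2 and DESeq2 are named in the submitters' processing notes. A symbol was found for 53620 genes. Of the members, 5 share exons with another gene on the same strand and 23 on the opposite strand.

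Genes were tested over all 6 libraries in R 4.3.3 with edgeR 4.0.16 (robust quasi-likelihood test, TMM, filterByExpr, 16007 genes), on treatment group alone and with the clone as a block, at a Benjamini-Hochberg adjusted p of 0.05 over all genes tested. The number in a title is the subclone, so libraries that share it are paired, and their deviations from the group means correlated at 0.80, 0.58 and 0.71. The clones were compared with group and clone as terms. Residual degrees of freedom were 3 on treatment group alone and 2 with the block, and the biological coefficient of variation was 0.271 and 0.121. An SE is the log2 change over the root of its F statistic. Differences within clones used log2 CPM (TMM, prior count 2). A floor of 3 counts was 0.0711 to 0.120 CPM and covers counting error only.

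Alternatives were DESeq2 1.42.0, limma 3.58.1 voom, other scalings, no filter, removal of a length trend, the 4 libraries compared and leaving out each library. Other scalings of the within-clone medians, calls with total counts, the alternatives for gene lists other than the members and the letters of the promoter strings were chosen after seeing the data. Tests were checked on simulated data. The members and lists were chosen with earlier results of these data known. Named genes are called members that changed in 1 direction in both clones, or the 3 smallest p where fewer than 3 were called. X-linked members, paralogs, the highest and lowest per complex and up to 4 genes per other list were added. Yy1 was named in addition, as a factor of a promoter string.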

Additional observations from a re-analysis of the deposited data

Results flagged for a closer look

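The change of the members at 48 h against untreated differed in direction between the subclones. The median log2 difference was 0.15 within clone 31 and -0.15 within clone 30, and 61 of 79 members lay above 0 in clone 31 and below 0 in clone 30, with 0 the other way round. The difference was not tested, because each clone has 1 library per time and a fit with a clone-by-time term leaves no residual degrees of freedom. The signs of both medians were the same under TMM, DESeq2 size factors, upper-quartile scaling, total counts and removal of each library's length trend. The untreated library of clone 30 has the highest share of counts in the members, 1.31%, and the lowest total count, and its part in the pattern was not tested.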

How the results depend on the processing

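Counts of called members at 24 h against untreated were 0 under every alternative run. At 48 h against untreated, DESeq2 with the replicate block called 1 member in place of 0, and leaving out 1 library gave 0 to 10 with the block and 0 to 0 without it. At 48 h against 24 h, the fit on treatment group alone called 0, the replicate block 3, DESeq2 1 and DESeq2 with the block 4, and leaving out 1 library gave 0 to 29 with the block. The median of the members for 48 h against 24 h was 0.18 with upper-quartile scaling, against 0.10. Between clones, total counts called 4 members and upper-quartile scaling 2 in place of 1, and leaving out 1 library gave 1 to 19. The highest counts of these ranges came from fits without 1 of the 48 h libraries, which leave a lone library at that time. Those fits also called a larger share of all genes than the fit on all libraries. In each of them, a smaller share of the members than of all genes was called. Medians over leave-one-out fits ran from -0.20 to 0.05 at 24 h and -0.11 to 0.14 at 48 h. They ran from 0.07 to 0.16 at 48 h against 24 h and -0.18 to 0.01 between clones.

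Of single members that were not called, some changed sign when 1 library was left out. At 24 h, without untreated clone 30, Cox7c was at 0.00044 (range without the block -0.360 to 0.00044), Ndufa1 at 0.110 (-0.348 to 0.110; 0.00049 with the block, lowest -0.244) and Ndufb11 at 0.0788 (-0.205 to 0.0788; with the block 0.0778, lowest -0.203). Cox7b at 48 h against untreated was at 0.0365 without untreated clone 30 (-0.175 to 0.0365), and with the block at 0.0620 without that library and 0.0527 without 48 h clone 30 (lowest -0.201). Cox7b at 48 h against 24 h was at -0.0404 without 48 h clone 31 with the block (highest 0.205), and between clones at 0.0524 and 0.0509 without either untreated library (lowest -0.126). The median between clones at 48 h was -0.0530 with total counts. The causes were not tested. With 1 library per clone and time, a difference in response between the clones could not be tested, and Cox7a1 rests on 36 to 119 counts per library.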
